A study of Mus musculus with 17 samples.

Results

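Esrp1 and Esrp2, the epithelial splicing regulatory proteins, were followed together with 4 genes known as their splicing targets, Enah, Ctnnd1, Fgfr2 and Cd44. These 6 genes, of 53693 in the tables, were chosen by name. Esrp1 and Esrp2 were measured per gene, and the 4 targets by single transcript as a share of the gene's TPM, a measure of transcript abundance that corrects for transcript length and for the depth of a library. The libraries came from 5 mouse embryonic stem (ES) cell lines, iFoxA1, iFoxC1, iFoxG1, iFoxL2 and iFoxP3, all derived from MC1 ES cells of the 129S6/SvEvTac strain. Each line carries at Rosa26 the open reading frame of the Fox transcription factor it is named after, with a C-terminal His6-FLAG tag and a puromycin resistance gene, and doxycycline (Dox) keeps it off. At 0 h the cells grew with 0.2 µg/ml Dox in ES medium, which held leukemia inhibitory factor (1000 U/ml) and 15% fetal bovine serum. At 24 h the cells had been without Dox for 24 h, after washes 3 h apart, in a differentiation medium with 10% serum. There were 6 libraries at 0 h (2 of iFoxA1 and 1 of each other line) and 11 at 24 h (3 of iFoxA1 and 2 of each other line), 17 in all. No line without a transgene was among them, and the medium changed together with Dox, so the effects of the factor, of Dox and of the medium cannot be told apart. In RNA from whole cultures, fewer cells with a transcript and less of it per cell cannot be told apart either.

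The Esrp proteins bind GU-rich sequences in pre-mRNA, close to alternative exons, and their expression is a property of epithelial cells. There they favour one set of isoforms: Enah with the exon called 11a, Ctnnd1 (p120-catenin) that starts translation at a downstream codon, Fgfr2 with the IIIb exon in place of IIIc, and Cd44 with variable exons. Loss of Esrp1 goes with mesenchymal isoforms during epithelial-mesenchymal transition, in which the Zeb and Snai repressors lower Esrp1, whereas grainyhead-like factors such as Grhl2 maintain epithelial genes. Mouse ES cells are themselves an epithelial-like cell.

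The sequences below are parts of the target transcripts that tell their isoforms apart, read from the GENCODE M21 transcripts (mm10 build, all on the minus strand). The exons stand in capitals, with the adjoining 12 bases of the neighbouring exons in lower case. For Ctnnd1 the 30 bases from each start codon are given, with the codon in capitals.
Enah 11a exon: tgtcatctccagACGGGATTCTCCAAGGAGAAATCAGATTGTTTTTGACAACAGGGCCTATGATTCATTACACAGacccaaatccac
Ctnnd1 long start: ATGgacgactcagaggtggagtcgaccgcc
Ctnnd1 short start: ATGcaggagccaggacagattgtggaaacc
Fgfr2 IIIb exon: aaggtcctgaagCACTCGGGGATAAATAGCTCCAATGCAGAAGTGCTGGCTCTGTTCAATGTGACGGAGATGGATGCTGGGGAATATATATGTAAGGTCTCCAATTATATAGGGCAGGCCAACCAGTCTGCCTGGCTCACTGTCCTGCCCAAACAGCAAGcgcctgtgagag

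The Enah 11a exon is a coding cassette exon of 63 bases at chr1:181911597-181911659 and is part of 1 of the gene's 16 annotated transcripts, Enah-202. That transcript differs from the others in further exons and ends, so reads outside the 11a exon also bear on its level. The 30 bases from the Ctnnd1 start codons lie at chr2:84624435-84624464 (long) and chr2:84620922-84620951 (short), with the codons 101 codons apart in the coding sequence. Of 30 Ctnnd1 transcripts, 10 begin at the long and 5 at the short start. The Fgfr2 IIIb exon (chr7:130199758-130199905, 148 bases) is in 11 of 27 transcripts and the IIIc exon in 5, and both join the same neighbouring exons. The variable region of Cd44 (chr2:102831330-102848782) holds 10 variable exons, and 7 of 9 transcripts contain at least 1 of them. The genes lie at chr4:11331933-11386783 (Esrp1), chr8:106130319-106136974 (Esrp2), chr1:181896384-182019990 (Enah), chr2:84600071-84650765 (Ctnnd1), chr7:130162451-133123350 (Fgfr2) and chr2:102811141-102901665 (Cd44).

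Library totals ran from 17.7 to 37.2 M estimated counts. A set of 5 libraries, all at 24 h (iFoxA1 replicate 3 and replicate 2 of every other line), held 32.9 to 37.2 M and is called the deeper set; the other 12 held 17.7 to 22.2 M. The sets also differed in which transcripts of a gene took the reads, so shares are given for both. All 8 ES cell markers (Pou5f1, Nanog, Sox2 and others) were at 1 TPM or more in every library, and their summed level was 5468 to 7014 TPM at 0 h and 3493 to 5928 TPM at 24 h. Of the markers of other cells, 1 of 8 for fibroblasts or feeders, 1 of 4 for smooth muscle, 1 of 4 for endothelium and 0 of 4 for blood reached 1 TPM in every library. Their summed levels at 0 h and 24 h were 2.56 to 7.65 and 4.06 to 14.6 TPM for fibroblasts (mostly Thy1), 3.43 to 37.2 and 4.48 to 188 TPM for smooth muscle (mostly Tagln), 35.9 to 65.2 and 16.6 to 45.5 TPM for endothelium (mostly Pecam1), and 0.811 to 2.20 and 1.51 to 3.66 TPM for blood, with Hbb-bt listed at 0 throughout. Their part in the results below was not tested.

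Esrp1 rose in all 5 lines. In CPM, counts per 1 M of the scaled library total, iFoxA1 went from 7.99 and 7.94 CPM at 0 h to 102, 100.4 and 75.3 CPM at 24 h, and iFoxC1 from 1.33 CPM to 49.9 and 52.2 CPM. In iFoxG1 Esrp1 went from 9.46 CPM to 77.6 and 84.9 CPM, in iFoxL2 from 16.1 CPM to 67.3 and 47.0 CPM, and in iFoxP3 from 10.9 CPM to 51.3 and 56.7 CPM. Each of the 11 libraries at 24 h lay above every 0 h library of any line, the highest at 0 h being iFoxL2 and the lowest iFoxC1. Averaged over the lines, the log2 change was 3.21 ± 0.12 (SE), with an adjusted p of 5.77e-07 in edgeR's quasi-likelihood test (Benjamini-Hochberg over 19819 genes, threshold 0.05). In the same test 21.7% of all genes passed as higher and 16.1% as lower. Whether replicates came from separate cultures is not stated, so the p-values measure only the spread between these libraries.

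**Figure D1:**
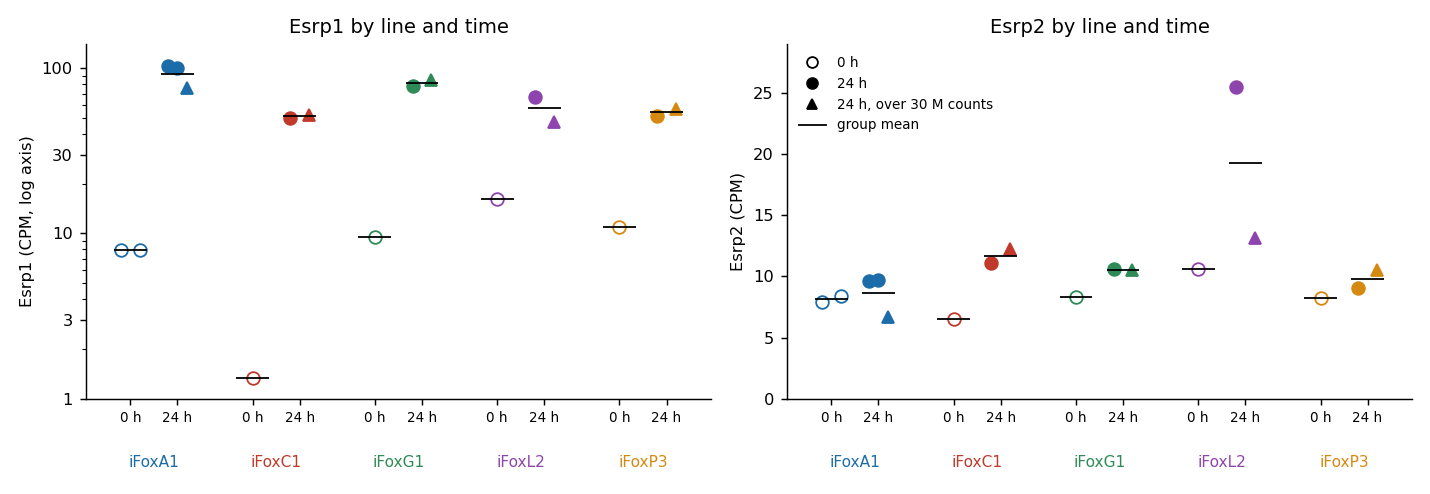
Esrp1 (left, CPM on a log axis) and Esrp2 (right, CPM) in each library by line and time. Open symbols are 0 h, filled symbols 24 h, triangles the 5 libraries over 30 M counts and bars the group means; Esrp1 is at 1.33 to 16.1 CPM at 0 h and 47.0 to 102 CPM at 24 h, whereas the Esrp2 ranges of the 2 times overlap.

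The size of the Esrp1 change differed between lines. It was 5.26 ± 0.33 (SE) on the log2 scale in iFoxC1, 3.54 ± 0.21 in iFoxA1, 3.10 ± 0.28 in iFoxG1, 2.31 ± 0.27 in iFoxP3 and 1.83 ± 0.26 in iFoxL2, and it passed the threshold in each line. The share of all genes called higher within a line was 6.23% in iFoxC1, 6.62% in iFoxA1, 3.34% in iFoxG1, 3.25% in iFoxP3 and 2.31% in iFoxL2. The adjusted p of the F test among the 5 changes was 0.0134, which 0.984% of genes passed. Leaving out the iFoxC1 library at 0 h also takes out the change of that line. The range of the changes was then 1.71 in place of 3.43, and the adjusted p of the F test was 0.0935. Lines also differed at 24 h alone (adjusted p of the F test 0.0244, passed by 13.1% of genes), with iFoxA1 at 92.7 ± 15.1 CPM (SD, n = 3) and iFoxG1 at a mean of 81.3 CPM above iFoxL2, iFoxP3 and iFoxC1, whose means of 57.2, 54.0 and 51.0 CPM differed by less than the spread between iFoxL2 replicates (SD 14.3 CPM, n = 2).

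Esrp2, the close relative of Esrp1, moved little. Its levels were 7.94 and 8.42 CPM at 0 h and 9.62, 9.67 and 6.68 CPM at 24 h in iFoxA1, 6.49 against 11.1 and 12.3 CPM in iFoxC1, and 8.33 against 10.6 and 10.5 CPM in iFoxG1. In iFoxL2 they were 10.6 against 25.5 and 13.1 CPM, and in iFoxP3 8.19 against 9.04 and 10.5 CPM. The 24 h library of iFoxA1 that lay below its 0 h libraries and the iFoxL2 library at 25.5 CPM mark the extremes; 10 of 11 libraries were above the 0 h libraries of their line. The average log2 change was 0.48 ± 0.16 (SE), with an adjusted p of 0.0410 in edgeR's test. The call was lost on leaving out any of 13 of the 17 libraries (adjusted p up to 0.137), and no line passed the threshold by itself. On the length-scaled measure, Esrp1 and Esrp2 were at like levels at 0 h outside iFoxC1, 3.01 to 5.38 TPM and 2.91 to 3.72 TPM. In iFoxC1 at 0 h Esrp1 was at 0.414 TPM and Esrp2 at 2.98 TPM. At 24 h Esrp1 was at 13.3 to 43.2 TPM and Esrp2 at 1.76 to 11.8 TPM. In 4 deeper libraries 34.9 to 59.3% of the Esrp2 TPM came from Esrp2-206, a processed transcript of 276 bases with at most 5.15 counts, which was at 0 in every shallower library.

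Among the 3 targets with enough counts for a fold to be measured, Fgfr2, a receptor for fibroblast growth factors, rose most as a gene. Its level was 6.22 and 7.21 CPM in iFoxA1, 1.28 CPM in iFoxC1, 2.62 CPM in iFoxG1, 6.44 CPM in iFoxL2 and 4.12 CPM in iFoxP3 at 0 h. At 24 h it lay between 21.6 and 28.1 CPM in 10 libraries and at 7.71 CPM in iFoxL2 replicate 2, still above the iFoxL2 library at 0 h. The average log2 change was 2.65 ± 0.23 (SE; edgeR adjusted p 4.51e-05), and it passed within every line except iFoxL2 (1.23 ± 0.50, adjusted p 0.207). Ctnnd1, a catenin that binds cadherins at adherens junctions, was at 198 to 273 CPM at 0 h and 246 to 350 CPM at 24 h. Its average log2 change was 0.28 ± 0.07 (SE, edgeR adjusted p 0.00993). The change did not pass without the iFoxC1 0 h library, which takes that line out of the average (0.19, edgeR adjusted p 0.0739). Enah, an actin regulator of the Ena/VASP family, was at 298 to 387 CPM at 0 h and 276 to 652 CPM at 24 h (0.25 ± 0.19, adjusted p 0.346). In the shallower libraries alone, where only iFoxA1 has replicates, its change was smaller (0.0902). Cd44, the hyaluronan receptor, had 0 to 12 estimated counts in a library at 0 h and 1 to 36 at 24 h, and passed the test as higher (edgeR adjusted p 0.0149), though with 0 counts in iFoxC1 and iFoxG1 at 0 h its fitted fold has no fixed size. In all, 5 of the 6 genes passed as higher and 0 as lower, beside 21.7% and 16.1% of all genes.

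Enah transcripts with the 11a exon took a larger share of the gene at 24 h. The share of Enah TPM from Enah-202 was 8.77 and 7.32% at 0 h and 9.94, 8.76 and 16.6% at 24 h in iFoxA1, and 1.99% against 13.2 and 9.52% in iFoxC1. It was 6.27% against 15.5 and 15.1% in iFoxG1, 7.91% against 14.1 and 14.1% in iFoxL2, and 9.50% against 9.62 and 10.8% in iFoxP3. Of the 11 libraries at 24 h, 10 lay above the 0 h libraries of their line, with the smallest step in iFoxP3 and the lowest value of all in iFoxC1 at 0 h. The mean was 6.96 ± 2.68% at 0 h (SD, n = 6) and 12.5 ± 2.81% at 24 h (SD, n = 11). With equal weight per line the share rose by 5.80 percentage points, with p = 0.00247 in a two-sided exact permutation test of time within lines. There are 810 such regroupings, so the smallest p possible is 0.00123, and 3 events were tested this way. In the shallower libraries alone the rise was 5.59 points (exact p = 0.0417), so it was about as large without the deeper set. Only 96 regroupings exist there, and they come in mirror pairs, so no exact p in the shallower libraries can be under 0.0208.

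Over all transcript shares the change did not pass the threshold. The log2 ratio of Enah-202 to the rest of the gene changed by 1.12 ± 0.26 (SE), with an adjusted p of 0.161 in limma over 42986 transcript shares, of which 0.23% passed in either direction. On simulated data the share test recovered 0% of changes of 1 log2 unit and 7% of those of 2. A share missing that threshold is therefore not shown to be unchanged. The change within iFoxC1, 2.58 ± 0.62, had an adjusted p of 0.364 in limma (passed by 0.0721% of shares), and the F test among the 5 changes did not separate the lines (unadjusted p 0.118).

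**Figure D2:**
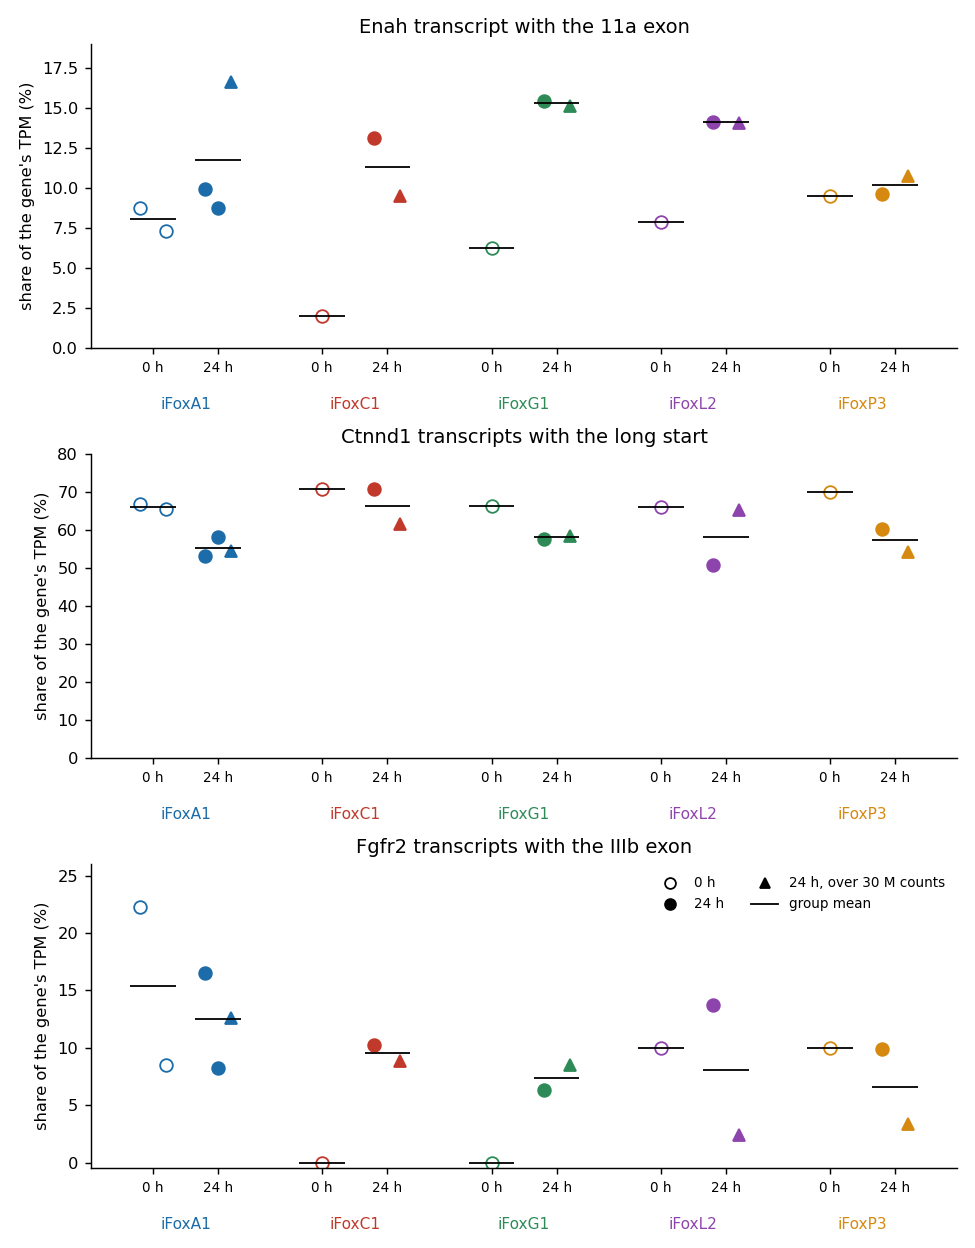
Share of the gene's TPM (%) from Enah transcripts with the 11a exon (top), Ctnnd1 transcripts with the long start (middle) and Fgfr2 transcripts with the IIIb exon (bottom), by line and time, with symbols as for the Esrp levels and bars for group means. The mean Enah share goes from 6.96% at 0 h to 12.5% at 24 h and the mean Ctnnd1 share from 67.6 to 58.7%; over all lines the ranges of the 2 times overlap in all 3 genes.

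The other Enah transcripts split by library set. Enah-203, a coding transcript that skips 11a, held 40.2 to 49.9% of the TPM in the 12 shallower libraries and 7.09 to 14.9% in the 5 deeper ones. Enah-215, a fragment of 556 bases with a retained intron, held 0 to 5.33% and 33.6 to 41.9% in the same sets. Enah-211 held 11.0 to 14.2% and 8.03 to 10.2%, and 12 further transcripts averaged at most 7.97% each. Because a short transcript weighs heavily in TPM, the 11a share was also taken over coding transcripts that either hold or skip the exon. It was then 3.16 to 13.4% at 0 h, 11.0 to 17.7% in the shallower and 18.9 to 41.8% in the deeper libraries at 24 h. The rise on that denominator was 11.8 points over all libraries (exact permutation p = 0.0173) and 5.38 points in the shallower ones (exact permutation p = 0.125). Part of its size thus moved with the library set, while the direction was the same on both.

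**Figure D3:**
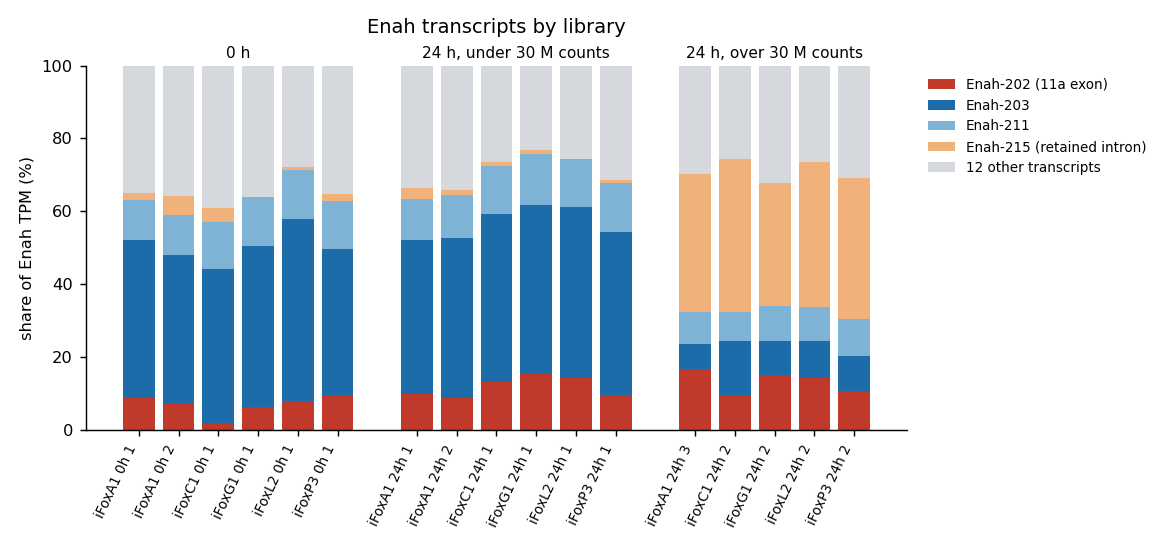
Share of Enah TPM (%) in each library, as bars stacked by transcript, for the 0 h libraries, the 24 h libraries under 30 M counts and the 24 h libraries over 30 M counts. Enah-203 holds 40.2 to 49.9% in the first 2 blocks and 7.09 to 14.9% in the third, where the retained-intron fragment Enah-215 holds 33.6 to 41.9%.

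Ctnnd1 moved away from the long start. Transcripts that begin at the long start held 66.8 and 65.6% of Ctnnd1 TPM at 0 h and 53.2, 58.2 and 54.4% at 24 h in iFoxA1, and 70.8% against 70.8 and 61.7% in iFoxC1. They held 66.2% against 57.7 and 58.5% in iFoxG1, 66.0% against 50.9 and 65.4% in iFoxL2, and 70.0% against 60.3 and 54.4% in iFoxP3. The share was lower at 24 h in 10 of 11 libraries, and the exception, iFoxC1 replicate 1, was level with its 0 h library. The means were 67.6 ± 2.25% at 0 h (SD, n = 6) and 58.7 ± 5.75% at 24 h (SD, n = 11). The share fell by 8.82 points with equal weight per line (exact permutation p = 0.00864, two-sided) and by 8.75 points in the shallower libraries alone (exact permutation p = 0.0417). Over coding transcripts that span both start codons, the long-start share fell by 7.91 points in all libraries (exact permutation p = 0.0173). The fall on that denominator was 9.57 points in the shallower ones (exact permutation p = 0.0208). In limma over all transcript shares the log2 ratio changed by -0.54 ± 0.26 (SE), with an adjusted p of 0.462.

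Most Ctnnd1 signal came from 3 transcripts. Ctnnd1-205, which begins at the short start, held 23.9 to 32.3% at 0 h and 25.8 to 46.4% at 24 h, and was above its line's 0 h libraries in 9 of 11 libraries. The exceptions were deeper libraries, iFoxG1 replicate 2 (32.3%, level with 0 h) and iFoxL2 replicate 2 (26.7% against 30.7%). Ctnnd1-217, with the long start, held 28.7 to 46.9% and 20.5 to 46.7%. Ctnnd1-223, also with the long start, held 13.7 to 33.5% at 0 h and was at 0 in every deeper library and in iFoxC1 replicate 1 at 24 h, while a further long-start transcript, Ctnnd1-201, held 12.8 to 32.1% in the deeper set and at most 5.71% elsewhere. Single long-start transcripts therefore traded places between library sets, whereas their sum was 58.5 ± 6.93% (SD, n = 6) in shallower and 58.9 ± 4.76% (SD, n = 5) in deeper 24 h libraries. Like sums need not mean a like gain of the short start. Short noncoding transcripts took more of the TPM in the deeper set, such as Ctnnd1-227 with up to 7.37%, against at most 2.54% in shallower libraries. By estimated counts, the long-start share in iFoxL2 replicate 2 was 71.3%, above the 68.3% at 0 h.

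Fgfr2 showed no shift toward the IIIb exon that could be resolved at this depth. At 0 h the gene had 27 to 149 estimated counts in a library, and at 24 h 246 to 954. The IIIb share of its TPM was 22.3 and 8.54% at 0 h and 16.6, 8.23 and 12.6% at 24 h in iFoxA1, and 0 against 10.2 and 8.87% in iFoxC1. It was 0 against 6.31 and 8.52% in iFoxG1, 9.96% against 13.8 and 2.38% in iFoxL2, and 10.0% against 9.86 and 3.34% in iFoxP3. The ranges of the times overlap, and 5 of 11 libraries at 24 h lay above and 4 below the 0 h libraries of their line. The 0 in iFoxC1 stands for 0 of 27 counts, which by counting error alone allows a share of up to 11.0%, and that in iFoxG1 for 0 of 51, which allows up to 5.89%. Both limits are too narrow, since estimated counts are not independent molecules. The mean difference was 1.75 points (exact permutation p = 0.531, two-sided). Over transcripts with either the IIIb or the IIIc exon it was 5.61 points (exact permutation p = 0.343), and 9.15 points in the shallower libraries. The limma estimate of the log2 ratio of IIIb to the rest of the gene was -0.16 ± 0.40 (SE, adjusted p 0.863), with a sign that depended on the processing. The IIIb signal came from Fgfr2-208, Fgfr2-210 and Fgfr2-211, with the other 8 IIIb transcripts at 0. The transcripts averaging at least 10% of the gene were Fgfr2-207 (0 to 36.5% at 0 h, 6.89 to 32.4% at 24 h) and Fgfr2-215 (0 to 30.1% and 0 to 26.2%), both with the mesenchymal-type IIIc exon, the retained-intron fragment Fgfr2-221 (0 to 35.3% and 0 to 33.0%), and Fgfr2-217 (0 to 33.2% and 0 to 30.6%) and Fgfr2-226 (0 to 17.1% and 0 to 28.4%).

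Cd44 was too low for its exon choice to be read. It reached at most 0.694 TPM, and its share of transcripts with variable exons ranged from 0 to 100% over libraries of 0 to 36 counts. Cd44-207, with variable exons, had 10 and 12 counts in iFoxA1 at 0 h and 0 to 11.7 counts elsewhere. Cd44-201 and Cd44-202, also with variable exons, had at most 13 and 24.4 counts, and the standard form Cd44-203 at most 8.21. These values allow no comparison of shares between times or lines, and Cd44 was under the minimum of 1 TPM set for the test of shares.

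At 0 h, iFoxC1 had less Esrp1 than the other lines. Its single library held 28 estimated Esrp1 counts, 1.33 CPM, against 7.94 to 16.1 CPM in the 5 other libraries at 0 h. The log2 difference from the mean of the 4 other lines was -3.01 ± 0.28 (SE; edgeR adjusted p 0.00359), and 0.883% of all genes passed as lower in this comparison. Esrp1 was the member called there. Esrp2 was at 6.49 CPM against 7.94 to 10.6 CPM (-0.43 ± 0.34, adjusted p 0.613), and the totals of Fgfr2 (-1.86 ± 0.52, adjusted p 0.117), Ctnnd1 (-0.40 ± 0.15, adjusted p 0.225) and Enah (-0.30 ± 0.41, adjusted p 0.821) did not pass in edgeR. The iFoxC1 group at 0 h is 1 library and was assumed to vary like the others. This comparison was chosen with the low Esrp1 of that library known, so the Esrp1 call in it is no separate evidence.

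The Enah 11a share was lowest in that library too. There were 118 of 6281 estimated Enah counts on Enah-202, or 1.88% (95% Wilson interval 1.57 to 2.25%), against 5.31 to 8.27% of counts in the other 0 h libraries, all of whose intervals lie above it. Such intervals cover counting error only, since estimated counts are not independent molecules. By TPM the share was 1.99% against 6.27 to 9.50%. The log2 ratio differed from the 4 other lines by -2.02 ± 0.56 (SE), with a limma adjusted p of 0.721, and 0.0861% of all transcript shares passed in this comparison. The Ctnnd1 long-start share, 70.8% in iFoxC1 and 65.6 to 70.0% in the others, differed by 0.24 ± 0.54 (limma adjusted p 1.00). Fgfr2, with 27 counts, could not show a difference of IIIb share. The library also held the highest sum of ES cell markers at 0 h, 7014 TPM against at most 5920 TPM, and the part of this in its low Esrp1 and Enah-202 was not tested.

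**Figure D4:**
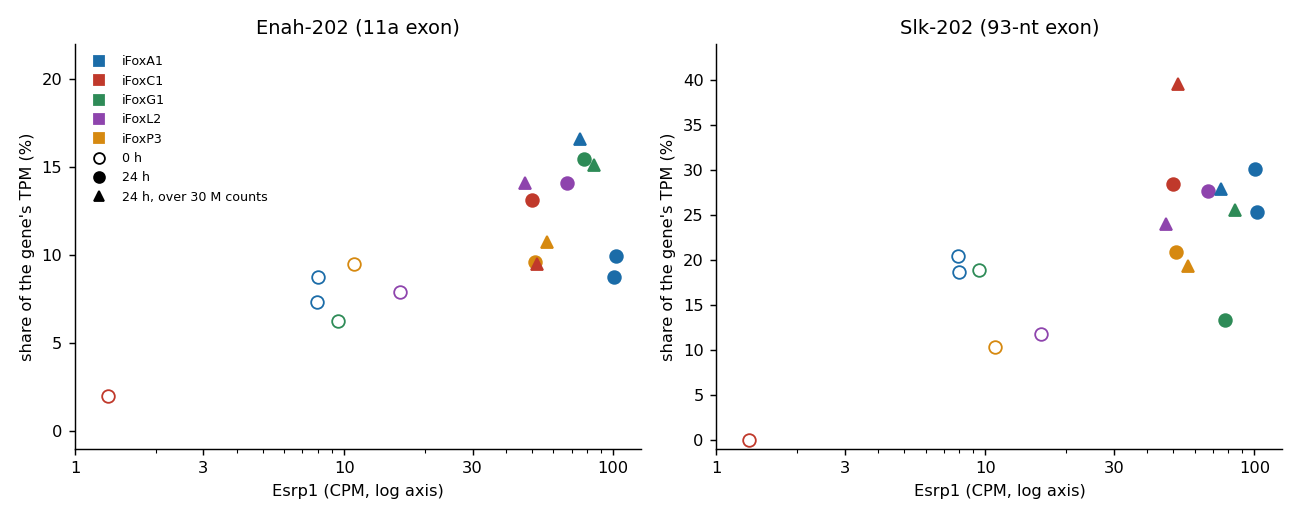
Share of the gene's TPM (%) from Enah-202 (left) and Slk-202 (right) against Esrp1 (CPM, log axis), 1 point per library, coloured by line, open at 0 h, filled at 24 h, with triangles for the libraries over 30 M counts. The iFoxC1 library at 0 h is alone at the lower left, with Esrp1 at 1.33 CPM, Enah-202 at 1.99% and Slk-202 at 0; at 24 h the shares spread from 8.76 to 16.6% and from 13.4 to 39.5%.

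Libraries of a line are not independent and Esrp1 fell into separate ranges at 0 h and 24 h, so no correlation of share with Esrp1 is given. Within 24 h the Enah-202 shares of the lines were not separated (F test among lines, unadjusted p 0.653, limma adjusted p 1.00). The mean share was 15.3% in iFoxG1, 14.1% in iFoxL2, 11.8 ± 4.22% in iFoxA1 (SD, n = 3), 11.3% in iFoxC1 and 10.2% in iFoxP3.

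Other genes known from other tissues to be spliced under Esrp control were taken through the same test. Of 15 such genes, 13 were expressed enough to test, with 82 transcripts, and 1 transcript passed in limma as higher at 24 h and 0 as lower, beside 0.23% of all rows in either direction. The median size of change was 0.74 on the log2 scale over these 82 transcripts, 0.98 over 26 transcripts of Enah, Ctnnd1 and Fgfr2, and 0.61 over all rows. Of those 26, 0 passed in limma, and 8 had an unadjusted p under 0.05, as did 11.4% of all rows. With edgeR's diffSpliceDGE, 2 of 24 passed (Ctnnd1-201 and Enah-215, which followed the library sets), as did 2.86% of all transcripts. The transcript that passed was Slk-202 of Slk, a kinase of the cytoskeleton, which holds a 93-base exon at chr19:47627648-47627740 (plus strand) that Slk-201 skips. The exon is shown in capitals, as it is the only target exon whose transcript passed over all rows.
Slk exon: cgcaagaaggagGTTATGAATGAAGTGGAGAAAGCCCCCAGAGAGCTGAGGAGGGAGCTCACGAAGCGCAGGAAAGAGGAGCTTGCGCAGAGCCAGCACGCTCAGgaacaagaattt

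Slk-202 held 18.7 and 20.5% of Slk TPM at 0 h and 25.3, 30.1 and 27.9% at 24 h in iFoxA1, and 0 against 28.4 and 39.5% in iFoxC1. It held 18.9% against 13.4 and 25.5% in iFoxG1, 11.8% against 27.6 and 24.0% in iFoxL2, and 10.4% against 20.9 and 19.3% in iFoxP3. The share was higher at 24 h in 10 of 11 libraries. The average log2 change was 1.85 ± 0.27 (SE; limma adjusted p 0.0455). The call was lost on leaving out any of 16 of the 17 libraries. Without the iFoxC1 library at 0 h, which takes that line out of the average, the change was 0.76 (limma adjusted p 0.484). In that library 0 of 1432 Slk counts were on Slk-202, which by counting error alone allows a share of up to 0.209%. Estimated counts are not independent molecules and are divided among transcripts by the estimation, so this limit is too narrow. The other 0 h libraries held 7.23 to 15.6% of counts on Slk-202 (difference -4.67 on the log2 scale, limma adjusted p 0.0384). That call was lost on leaving out any of 13 of the 16 other libraries (adjusted p up to 0.116), with a pseudocount of 1 TPM (-1.90, adjusted p 0.735), in the shallower libraries (adjusted p 0.105) and with a replicate block (adjusted p 0.0881). Epb41l5-201, of an actin-linked polarity gene, went from 4.06 ± 1.88% (SD, n = 6) at 0 h to 19.6 ± 7.53% (SD, n = 11) at 24 h, above its line's 0 h libraries in 11 of 11 libraries, and did not pass the threshold (2.18 ± 0.36, limma adjusted p 0.0600). Tcf7l2-213 (-1.94 ± 0.34, limma adjusted p 0.0755) rested on 1 library at 0 h, iFoxG1 with 60.7%, and Nf2-204 had means of 3.68% at 0 h and 1.62% at 24 h (-1.46 ± 0.27, limma adjusted p 0.0827). With no filter on low values all 3 passed in limma (adjusted p 0.0113, 0.0145 and 0.0106), whereas with diffSpliceDGE none of them did (0.811, 1.00 and 0.398).

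Genes known to switch Esrp1 on or off and markers of the epithelial and mesenchymal states were also followed. Of 15 such genes, all tested, 10 passed as higher, 2 as lower and 3 did not pass, beside 21.7% of all genes called higher and 16.1% lower, with a median log2 change of 0.84 against 0.042 over all genes. Grhl2, a grainyhead-like activator of epithelial genes, rose by 1.69 ± 0.09 (SE) on the log2 scale (edgeR adjusted p 2.52e-06), with means of 19.4 ± 6.10 CPM at 0 h (SD, n = 6) and 60.3 ± 26.2 CPM at 24 h (SD, n = 11). Epcam, an epithelial adhesion molecule, rose from 67.7 to 135 CPM (0.99 ± 0.08, adjusted p 3.85e-05). Vim, the mesenchymal intermediate filament, fell by 1.31 ± 0.08 from 427 to 162 CPM (adjusted p 5.79e-06), and Zeb1, the repressor of Esrp1 and Cdh1, fell by 0.72 ± 0.08 from 20.1 to 13.5 CPM (adjusted p 0.000174). Not all moved the epithelial way: Cdh2 (2.14 ± 0.26), Twist1 (1.29 ± 0.25) and Zeb2 (0.74 ± 0.21), all linked with mesenchymal cells, passed as higher but reached means of 9.06, 1.96 and 1.21 CPM, and were singled out after their values were seen. In iFoxC1 at 0 h, Grhl2 was at 8.01 CPM against 17.9 to 24.7 CPM in the other libraries (-1.47 ± 0.20, edgeR adjusted p 0.00957), the 1 gene of the list called there. In that comparison 0.883% of all genes passed as lower. Listed genes that did not pass went both ways among epithelial and mesenchymal members alike. Zeb1 was at 27.7 against 17.4 to 19.9 CPM (0.59 ± 0.17), and Grhl3 at 39.1 against 14.1 to 16.4 CPM (1.37 ± 0.45). Vim was at 277 against 376 to 519 CPM (-0.67 ± 0.18). Zeb2 (-1.83 ± 0.51) and Ovol2 (-1.94 ± 0.58) were lower too, both under 1 CPM in iFoxC1.

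**Figure D5:**
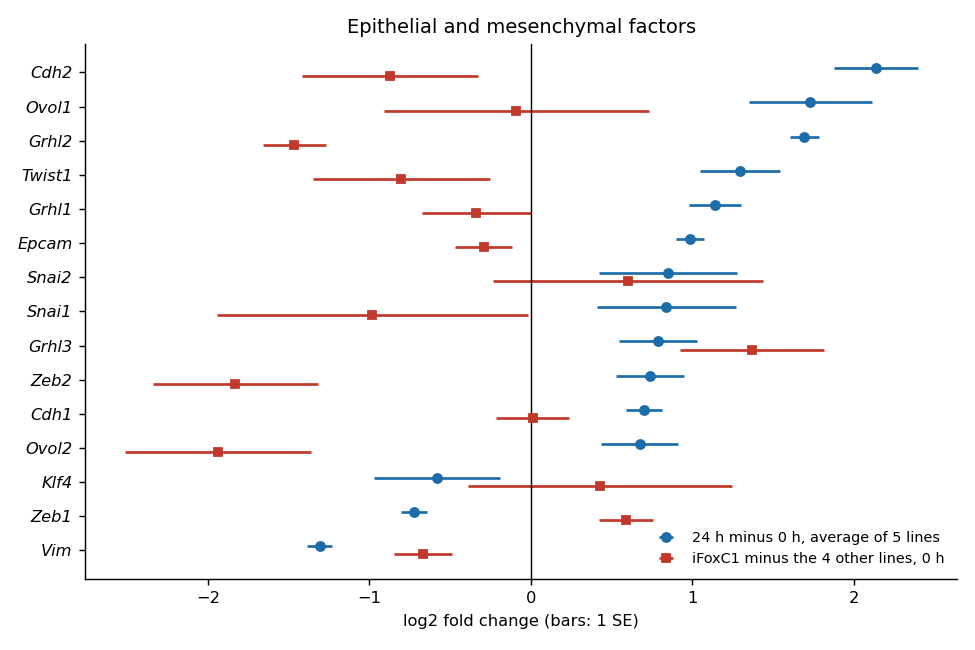
Log2 fold change (bars, 1 SE) of the 15 epithelial and mesenchymal factors and markers from 0 h to 24 h, averaged over the 5 lines (circles), and in iFoxC1 against the 4 other lines at 0 h (squares). Grhl2 lies at 1.69 in the first comparison and -1.47 in the second, and Vim and Zeb1 are lower at 24 h by 1.31 and 0.72.

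Other splicing regulators were called about as often as genes in general. Of 24 listed, 23 were tested, 6 passed as higher, 3 as lower and 14 did not pass, beside 21.7% and 16.1% of all genes, with a median log2 change of 0.048 against 0.042 over all genes. Those with the smallest adjusted p were Khdrbs1, an RNA-binding signalling adaptor (0.63 ± 0.06 SE, 171 to 259 CPM), Mbnl2, a muscleblind splicing factor (1.31 ± 0.15, 25.7 to 63.6 CPM), Elavl1, which binds AU-rich transcripts (0.27 ± 0.06), and Rbm38, an RNA-binding target of p53 (0.51 ± 0.13). In iFoxC1 at 0 h, 0 of the 23 passed in edgeR, with 4 at an unadjusted p under 0.05, beside 16.3% of all genes.

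The protein-coding genes whose levels most resembled those of Esrp1 were Dusp6, an ERK phosphatase, with Pearson's r of 0.965 over log2 CPM in the 17 libraries, Pon2 (0.959), Lix1 (0.957), Sestd1 (0.943), Lsr, a protein of tricellular junctions (0.942), and Kndc1 (0.941), out of 10207 candidates. This r describes mainly the step between times, which the libraries of a line share; over the 11 libraries at 24 h it ranged from -0.07 to 0.77. Dusp6 was at 9.48 CPM in iFoxC1 at 0 h, against at least 33.9 CPM in the other 0 h libraries. That library entered the r by which Dusp6 was picked, so its low value there is no separate evidence.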

How the data were processed

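Polyadenylated RNA of 5 mouse ES lines at 0 h and 24 h was sequenced from strand-specific libraries (1 µg of total RNA), 17 in all. The authors deposited estimated counts and TPM per transcript, which carry Salmon's file ending per the file headers; the submitters' processing notes name Salmon 1.4.0, DESeq2 1.30.1 and mm10, and the transcript annotation they used was not given in the sources used here. Of 137271 transcripts, 137225 matched GENCODE M21 by identifier; the 46 others held at most 0.0133% of counts and were left out.

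Estimated counts were summed per gene and rounded. After edgeR's filterByExpr 19819 genes were fitted with TMM scaling and the quasi-likelihood test (edgeR 4.0.16, R 4.3.3) over 10 groups, each line at each time, which left 7 residual degrees of freedom. Fits of the shallower libraries alone took their spread from iFoxA1, the only line with replicates there. The average change gives each line equal weight. Shares were tested with limma 3.58.1 on log2((transcript TPM + 0.1)/(TPM of the rest of the gene + 0.1)), for transcripts holding 2% to 98% of genes with a mean of at least 1 TPM, and per event by exact permutation of time within lines. Fold changes on a log2 scale with a pseudocount understate the change of low transcripts. Benjamini-Hochberg adjustment ran over all rows. On simulated data the gene test recovered 74% of changes of 1 log2 unit and 86% of those of 2, and the share test 0% and 7%.

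Named are all 6 genes, target transcripts averaging at least 10% of their gene, up to 4 genes or transcripts with the smallest adjusted p in each of 3 lists, and the 6 genes most like Esrp1 among those with at least 5 CPM. The genes, the lists and the comparison of iFoxC1 at 0 h were chosen with earlier results of these data known. Alternatives covered the pseudocount, filters, shares of counts, other denominators, DESeq2 1.42.0, edgeR's diffSpliceDGE, the shallower libraries, the library set or replicate number as a term, and leaving out each library. Leaving out the only 0 h library of a line also took that line out of the averages and out of the tests among changes. The coding-transcript denominators and the alternatives for single transcripts of other targets were added after the data were seen. The sequence of the Fgfr2 IIIc exon is not reported here.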

Additional observations from a re-analysis of the deposited data

Results flagged for a closer look

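The change of Esrp1 from 0 h to 24 h differed between lines by a test of the difference itself, an edgeR F test among the 5 within-line changes (adjusted p 0.0134). The log2 changes were 5.26 ± 0.33 (SE) in iFoxC1, 3.54 ± 0.21 in iFoxA1, 3.10 ± 0.28 in iFoxG1, 2.31 ± 0.27 in iFoxP3 and 1.83 ± 0.26 in iFoxL2, all upward. The adjusted p was above 0.05 on leaving out any of 5 of the 17 libraries: iFoxA1 replicate 1 at 0 h (0.0758), iFoxA1 replicate 2 at 0 h (0.0743), iFoxC1 at 0 h (0.0935), iFoxC1 replicate 1 at 24 h (0.0533) and iFoxC1 replicate 2 at 24 h (0.0573). Without the iFoxC1 library at 0 h, and so without the change of that line, the changes spanned 1.71 log2 units in place of 3.43.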

How the results depend on the processing

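Of 889 values recomputed for 38 results, 786 kept direction and side of the threshold, 55 lost the threshold, 20 gained it and 28 changed sign. The Esrp1 rise, its low level in iFoxC1 at 0 h, and the Ctnnd1 long-start fall in the exact test kept their calls under every alternative run for them. The average Esrp2 change was 0.37 to 0.55 when 1 library was left out and lost its call in 13 of 17 cases. The Enah 11a log2 ratio passed in limma with no filter on low values (1.12, adjusted p 0.0275), and its exact test over coding transcripts lost the threshold in shallower libraries (5.38 points, exact p = 0.125). The Fgfr2 IIIb log2 ratio turned sign with shares of estimated counts (1.45) and shallower libraries (0.0934). It also turned with the library set as a term (0.0542) and the replicate block (0.17). With a pseudocount of 1 TPM it fell below 0 further and passed in limma (-1.10, adjusted p 0.0425). With 1 library left out it ran from -0.42 to 0.13, and the exact difference of the IIIb share ran from -0.20 to 3.12 points. Other settings of the exact test gave 0.094 to 9.15 points, the highest over transcripts with either exon in the shallower libraries. In iFoxC1 at 0 h the IIIb log2 ratio turned with a pseudocount of 1 TPM (0.19) and with transcripts spanning the event only (0.24). It also turned there with coding transcripts with a choice, over all libraries, over shallower ones or with the set as a term (each 1.08). With the pseudocount of 1 TPM, Fgfr2-207 turned to -0.66, Fgfr2-221 to -0.64 and Fgfr2-226 to -0.73. With 1 library left out, Fgfr2-207 ran from -0.13 to 0.58 and Fgfr2-221 from -0.21 to 0.68, both negative without iFoxG1 at 0 h. Fgfr2-221 turned to -0.43 in shallower libraries, -0.54 with the set as a term and -0.62 with the replicate block. Enah-203 turned to 0.10 and 0.13, Enah-215 to -0.56 and -0.46, and Enah-211 to 0.0269 and 0.0196 in shallower libraries and with the set as a term. Enah-211 turned to 0.10 with shares of counts and to 0.0689 with diffSpliceDGE, and Fgfr2-215 to 1.37 with diffSpliceDGE. The cause was not tested. For gene totals in iFoxC1 at 0 h, the alternatives other than leaving out 1 library changed the differences little. They ran from -0.44 to -0.41 for Esrp2, -1.87 to -1.83 for Fgfr2, -0.40 to -0.37 for Ctnnd1 and -0.30 to -0.28 for Enah. Calls of these totals in the shallower libraries alone are not given, since they rest on the spread between iFoxA1 libraries.

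The labels do not pair libraries by number. Correlations of deviations between same-numbered libraries were 0.546 to 0.731 at 24 h among the 4 lines whose replicate 2 is in the deeper set, and -0.542 to -0.496 for number 2 against iFoxA1, whose deeper library is number 3, so the number partly stands for the library set and was not taken as a pairing. With the replicate block Esrp1 changed by 3.25, Esrp2 by 0.54, the Enah ratio by 1.11, the Ctnnd1 ratio by -0.55 and Slk-202 by 1.71 (adjusted p 0.137), and Esrp1 in iFoxC1 at 0 h differed by -3.01. Of 35 values with the block, 31 kept direction and call. The exact test has no block fit, diffSpliceDGE gives no value per event, and the Cd44 event was not run because the gene is below the TPM minimum. Depth limits the Fgfr2 shares at 0 h and all Cd44 shares.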
